A study of Homo sapiens with 5 samples.

Results

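The genes described here are 10 regulators of epithelial identity: the grainyhead-like factors GRHL1, GRHL2 and GRHL3, the OVO-like zinc finger factors OVOL1 and OVOL2, the splicing regulators ESRP1 and ESRP2, the ETS factors ELF3 and EHF, and the Krüppel-like factor KLF5. They were taken by gene symbol from the 37181 genes or assembled loci of the deposited FPKM table, and for each symbol the entry with the highest mean over the 5 libraries was used. Of the 10, 9 reached the mean of 0.5 FPKM over the 5 libraries required for testing, and GRHL3 did not.

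RNA sequencing had been carried out on HCC827, a human lung adenocarcinoma cell line whose labels give an exon 19 deletion as its genotype, and on its gefitinib-resistant derivative HCC827/GR. Gefitinib is an inhibitor of the EGFR tyrosine kinase. HCC827/GR cells carry the same genotype label and were derived from the parental line under increasing doses of gefitinib for more than 6 months. Libraries of HCC827/GR replicates 1, 2 and 3 and of the gefitinib-sensitive parental HCC827 cells, replicates 2 and 3, were compared. The sources used here do not say whether HCC827/GR is a single clone, whether gefitinib was present when RNA was taken, or whether replicates were separate cultures, so that p-values measure only the spread between these libraries.

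Epithelial cells keep their identity through a small set of transcription factors that act on many genes of cell junctions. Grainyhead-like factors bind and open enhancers of E-cadherin and other junction genes, OVOL1 and OVOL2 repress mesenchymal regulators such as ZEB1, and ESRP1 and ESRP2 bind pre-mRNA and direct the epithelial splice forms of genes such as FGFR2 and CD44. ELF3 and EHF are epithelium-restricted ETS factors, and KLF5 is a zinc finger factor of proliferating epithelia. Loss of such regulators is a known feature of epithelial–mesenchymal transition (EMT), in which ZEB1 and ZEB2 repress epithelial genes.

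Across the 16189 entries tested, the correlation of log2(FPKM + 1) was between 0.913 and 0.927 within a cell line and between 0.851 and 0.873 across lines, with entries that are not independent replicates. Of 7 epithelial markers, 6 were found, with a summed level of 446.9 to 577.4 FPKM in HCC827/GR and 1073 to 1192 FPKM in HCC827 libraries, and 5 were lower in HCC827/GR by the test below. The entry of MUC1, among these 5, also holds transcripts of KRTCAP2 and AL713999.1. Of the alveolar markers, SFTPA1, SFTPB, SFTPC and SFTPD stayed under 0.5 FPKM in every library, and the entry of the lung lineage factor NKX2-1 was lower in HCC827/GR (below). Markers of other cell types were low, with fibroblast markers summing to between 2.67 and 3.30 FPKM and the 3 blood markers found to at most 0.306 FPKM. Most of the fibroblast sum was the PDGFRA entry, at 1.88 to 2.53 FPKM, which also holds transcripts of FIP1L1. Of the 5 endothelial markers, PECAM1 had 4.34 and 3.32 FPKM in HCC827 and was listed at 0 in every HCC827/GR library, while CDH5, VWF, KDR and TEK were under 0.5 FPKM in all 5. In bulk RNA, fewer cells expressing a gene and less RNA per cell cannot be told apart.

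The 9 regulators that could be read, all but OVOL2 (below), had a lower mean in HCC827/GR than in HCC827 cells, but to very different degrees. ESRP1, GRHL2, OVOL1 and EHF fell to under 10% of their parental FPKM, KLF5, GRHL1 and ESRP2 fell in part, and ELF3 was not separated between the lines. GRHL3, low in both lines, was at 17.1% of its HCC827 mean and was not tested. Differences were tested on log2(FPKM + 1), where the added 1 shrinks the change of genes near 0. The 9 tested are not the 9 above, since they include the joint OVOL2 and SNX5 entry and leave out GRHL3. At an adjusted p under 0.05, 7 of the 9 tested regulators were lower and 0 were higher (limma with a mean-variance trend, two-sided, Benjamini-Hochberg adjustment over all 16189 entries). Among all entries, 5.71% were called lower and 5.26% higher. ESRP1, GRHL2, OVOL1 and EHF had means of 0.0651, 0.0140, 0.00799 and 0.204 FPKM in HCC827/GR. They reached the mean required for testing only through HCC827, where they were high. Their calls, and their part in the counts and median below, are thus not independent of that filter. At an unadjusted p under 0.05, 7 of the 9 were lower and 0 higher, beside 2242 and 2168 of all 16189 entries. A difference of at least 1 on this scale together with an unadjusted p under 0.05 was met by 5 regulators in the lower direction, beside 3.97% of all entries, and by 0 in the higher direction, beside 2.96%. The median difference of the 9 was -1.30, beside 0.0014 over all entries tested. In 8 of the 9 every HCC827/GR value was below both HCC827 values, as in 23.4% of all entries, and the opposite order, held by 22.8% of all entries, was seen in 0. One of the 8 is the OVOL2 entry, which is shared with SNX5, and without it 7 of 8 were apart. Leaving out any 1 of the 5 libraries left GRHL2, ESRP1 and EHF called each time and OVOL1 when either HCC827 library was left out, while the entries called lower dropped from 924 to between 287 and 477. With the library-size covariate that the Ballgown model uses, which leaves fewer degrees of freedom, only ESRP1 of the 9 was called and 23 entries in all were lower.

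**Figure D1:**
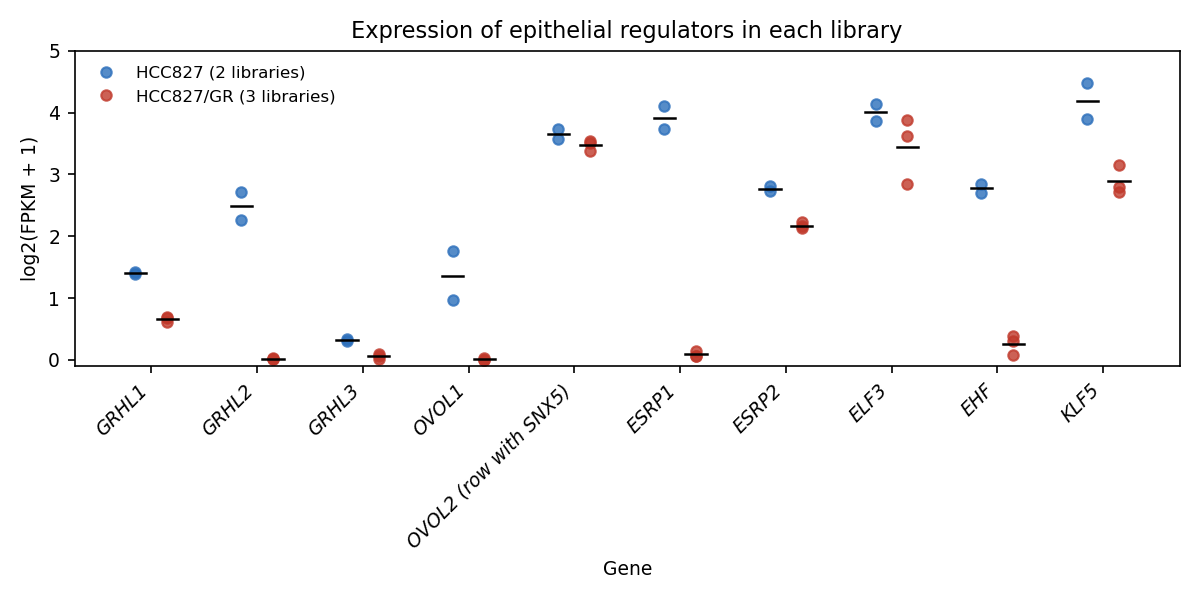
Expression of the 10 regulators as log2(FPKM + 1) on the vertical axis, with 1 point per library (blue, 2 HCC827 libraries; red, 3 HCC827/GR libraries) and a black line at each mean. ESRP1, GRHL2, OVOL1 and EHF lie close to 0 in HCC827/GR, whereas ELF3 overlaps between the lines, and the OVOL2 entry also holds transcripts of SNX5.

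GRHL2, the grainyhead-like factor best known for sustaining E-cadherin expression, was among the most reduced. Its expression was 3.82 and 5.59 FPKM in HCC827 replicates 2 and 3 and 0.0122, 0.0203 and 0.00963 FPKM in HCC827/GR replicates 1, 2 and 3. Every HCC827/GR library was close to 0 and far below both HCC827 libraries. The log2 difference was -2.47 (standard error 0.17, limma adjusted p of 0.00469), which ranked 69 among all entries from the lowest, and it stayed between -2.70 and -2.25 with each library left out in turn. A second entry with the symbol GRHL2, holding a single assembled transcript, had 2.47 FPKM in HCC827 replicate 2 and 0 in each of the 4 remaining libraries.

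GRHL1, a factor of epidermal differentiation and desmosomal gene expression, was lower by a smaller step. It had 1.61 and 1.68 FPKM in HCC827 and 0.536, 0.613 and 0.598 FPKM in HCC827/GR, a log2 difference of -0.74 (standard error 0.11, adjusted p = 0.0232 from limma). The groups did not overlap and libraries of a line lay close together, but with any of the 5 libraries left out the adjusted p was between 0.0603 and 0.0779, at a difference of -0.76 to -0.72. GRHL3, a factor of skin barrier formation and neural tube closure, was low in both lines, with 0.237 and 0.261 FPKM in HCC827 and 0.0164, 0.0655 and 0.0457 FPKM in HCC827/GR. Its values did not overlap between the lines, with a mean log2 difference of -0.26, but it fell short of the mean required for testing.

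OVOL1, a zinc finger repressor that restrains mesenchymal genes, had 0.962 and 2.37 FPKM in HCC827 cells. In HCC827/GR it was listed at 0 in replicates 1 and 3 and had 0.0240 FPKM in replicate 2. On the log2 scale its HCC827 values lay farther apart than those of the other 9, and both were above every HCC827/GR value. The log2 difference was -1.35 (standard error 0.27, limma adjusted p of 0.0429). It was -0.96 without HCC827 replicate 3 and -1.74 without replicate 2. When HCC827/GR replicate 1, 2 or 3 was left out, the adjusted p came to 0.121, 0.113 and 0.111.

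The level of OVOL2, a close relative of OVOL1 that also represses ZEB1, could not be read from the table. The entry with its symbol joins 5 transcripts of OVOL2 with 18 transcripts of SNX5, a widely expressed sorting nexin whose gene overlaps OVOL2 on the same strand, and no other entry carries the symbol OVOL2. This joint entry had 10.9 and 12.3 FPKM in HCC827 and 10.7, 9.38 and 10.3 FPKM in HCC827/GR, a log2 difference of -0.18 (standard error 0.11, limma adjusted p of 0.355). These values say nothing on their own about OVOL2 in either line. With the joint entry set aside, 7 of 8 tested regulators were lower and their median difference was -1.33.

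ESRP1 had the largest log2(FPKM + 1) difference of the tested regulators, while the ratio of the mean FPKM was lower for GRHL2 (0.298% of HCC827). This RNA-binding protein directs epithelial splice forms, and its expression was 16.3 and 12.3 FPKM in HCC827 against 0.0476, 0.1002 and 0.0475 FPKM in HCC827/GR cells. The HCC827/GR mean was 0.456% of the HCC827 mean, a ratio that rests on values close to 0. The log2 difference of -3.83 (standard error 0.14, adjusted p = 0.00161 from limma) ranked 13 from the lowest of all entries and stayed between -4.02 and -3.64 with each library left out.

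ESRP2, which shares targets with ESRP1, was kept at a lower level. It had 6.00 and 5.63 FPKM in HCC827 and 3.47, 3.70 and 3.37 FPKM in HCC827/GR, with no overlap and a log2 difference of -0.59 (standard error 0.090, adjusted p = 0.0245 from limma). With any of the 5 libraries left out its adjusted p was between 0.0673 and 0.105. The entry holds 10 Ensembl transcripts of ESRP2 and 1 of the non-coding gene AC020978.5 on the same strand, and exons of NFATC3 overlap ESRP2 on the other strand.

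**Figure D2:**
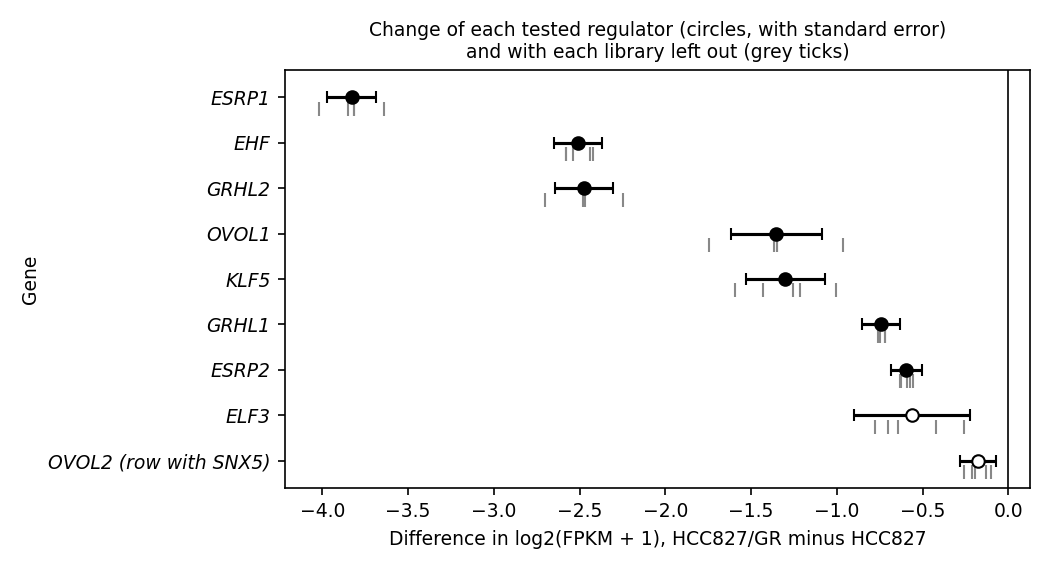
Difference in log2(FPKM + 1), HCC827/GR minus HCC827, for the 9 tested regulators, with circles for the estimate (filled where the adjusted p was under 0.05), bars for its standard error and grey ticks for the estimate with each library left out. ESRP1 lies lowest at -3.83, and ELF3 and the joint OVOL2 and SNX5 entry are not called.

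EHF, an ETS factor of epithelial differentiation, had 6.18 and 5.52 FPKM in HCC827 and 0.312, 0.241 and 0.0602 FPKM in HCC827/GR. The lines were far apart, and HCC827/GR replicate 3 was the lowest library. Its log2 difference was -2.51 (standard error 0.14, adjusted p = 0.00275 from limma), which ranked 63 from the lowest and stayed between -2.58 and -2.42 with each library left out.

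ELF3, an ETS factor of glandular and airway epithelium, had the highest mean FPKM of the readable regulators in HCC827/GR, although KLF5 was above it in replicate 3. It had 16.7 and 13.6 FPKM in HCC827 and 11.3, 13.7 and 6.19 FPKM in HCC827/GR, so that HCC827/GR replicate 2 lay just above HCC827 replicate 3. The log2 difference was -0.56 (standard error 0.34, limma adjusted p of 0.360) and ran from -0.78 to -0.26 with each library left out. This spread does not allow a statement that ELF3 was equal in the lines. The entry also holds 1 transcript of the sense intronic gene AL691482.3, and ELF3-AS1 overlaps ELF3 on the opposite strand.

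KLF5, which sustains proliferation in many epithelia, had the highest mean of the 10 in HCC827, with 13.9 and 21.4 FPKM there and 5.59, 5.96 and 7.85 FPKM in HCC827/GR. All HCC827/GR values were below both HCC827 values, and the HCC827 libraries differed from each other by more than the HCC827/GR libraries did. The log2 difference was -1.30 (standard error 0.23, adjusted p = 0.0355 from limma). It ran from -1.59 without HCC827 replicate 2 to -1.004 without replicate 3, and with any of the 5 libraries left out the adjusted p was between 0.0628 and 0.114.

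FPKM is scaled by transcript length, so levels of different genes may be set side by side; the joint OVOL2 and SNX5 entry is left out here. In HCC827 cells the mean was 17.6 ± 5.31 FPKM (SD, n = 2) for KLF5, 15.2 ± 2.21 for ELF3 and 14.3 ± 2.82 for ESRP1, 3 genes that do not differ beyond their spread. EHF at 5.85 ± 0.470, ESRP2 at 5.82 ± 0.263 and GRHL2 at 4.70 ± 1.25 FPKM followed and also lay within their spread of each other, and below them were OVOL1 at 1.67 ± 0.998 and GRHL1 at 1.64 ± 0.0484 FPKM, which were not apart, and GRHL3 at 0.249 ± 0.0167 FPKM. In HCC827/GR cells the order was ELF3 at 10.4 ± 3.84 FPKM (SD, n = 3) and KLF5 at 6.47 ± 1.21, whose values overlapped, then ESRP2 at 3.52 ± 0.171 and GRHL1 at 0.582 ± 0.0406, with the other genes below. ESRP1 went from the third place among these genes in HCC827 to a mean of 0.0651 ± 0.0304 FPKM, where its values overlapped those of EHF, at 0.204 ± 0.130 FPKM, and of GRHL3.

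The reduction was uneven within pairs of related genes. ESRP2 made up 27.0% and 31.5% of the summed ESRP1 and ESRP2 FPKM in the HCC827 libraries and 97.4% to 98.6% in the HCC827/GR libraries, while the sum was 20.1 ± 3.08 (SD, n = 2) and 3.58 ± 0.201 FPKM (SD, n = 3). Between GRHL1 and GRHL2, GRHL1 made up 29.6% and 23.1% in HCC827 and 96.8% to 98.4% in HCC827/GR, a share that leaves out GRHL3, and the sum of the 3 grainyhead-like genes was 6.59 ± 1.31 and 0.639 ± 0.0680 FPKM. Between EHF and ELF3, ELF3 made up 73.0% and 71.1% in HCC827 and 97.3% to 99.0% in HCC827/GR. The changes within these pairs were themselves compared: on the log2(FPKM + 1) scale ESRP1 changed by -3.23 relative to ESRP2, GRHL2 by -1.73 relative to GRHL1 and EHF by -1.95 relative to ELF3. In each pair the difference between the genes was lower in all HCC827/GR libraries than in both HCC827 libraries. The two-sided exact permutation p was 0.1 for each, also after adjustment over 4 pairs, which is the smallest that 3 libraries against 2 allow. The fourth pair, OVOL1 and OVOL2, rests on the joint entry.

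**Figure D3:**
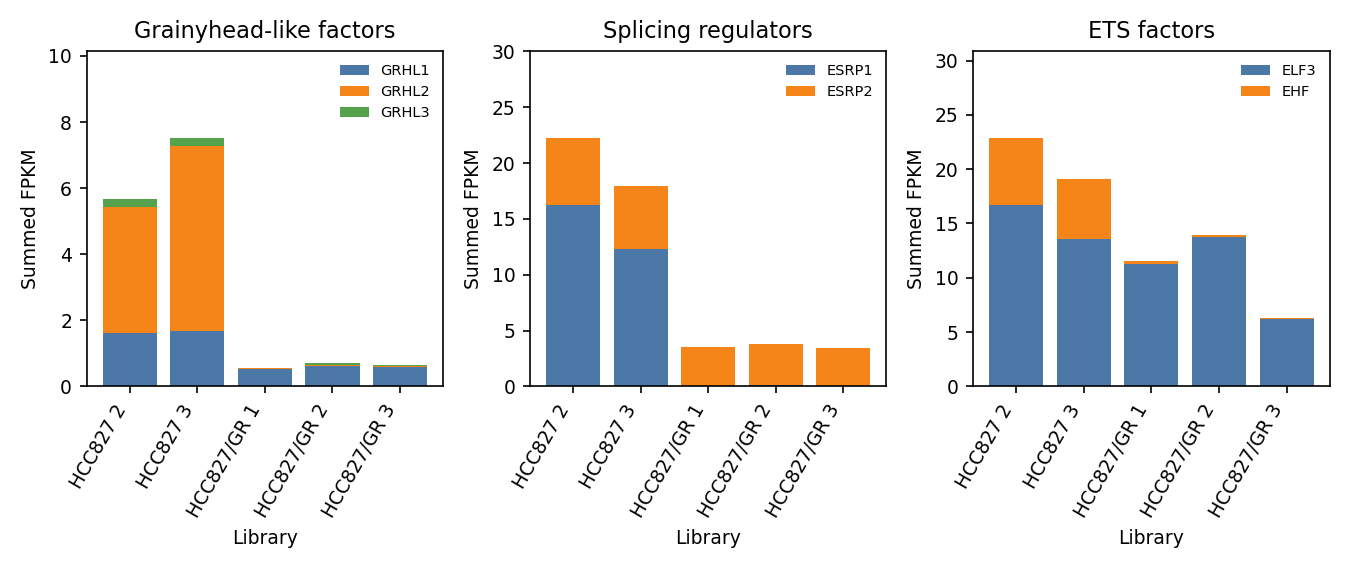
Summed FPKM (vertical axis, from 0) of the grainyhead-like factors, the ESRP splicing regulators and the 2 ETS factors in each library, stacked by gene. In the 3 HCC827/GR libraries GRHL1, ESRP2 and ELF3 make up most of each sum.

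Positions and promoters were looked up for the regulators in GRCh38. RefSeq promoter entries (GRCh38.p14) were at hand for 5 of the 10, GRHL1, GRHL3, ELF3, EHF and KLF5, with 8 starts between them. The 250 bases before each start were searched on both strands for CACCTG, the E-box bound by ZEB and SNAI repressors, for AACNNGTT, the core of grainyhead sites, and for GGGCGG, the GC box of SP and KLF factors. CACCTG was found before 2 of the 8 starts and before 17.5% of 35116 starts in the whole table, AACNNGTT before 0 and 3.0%, and GGGCGG before 3 and 42.6%. No motifs overlapped each other in the 8 windows. A match is only a description of the letters, and the lack of one says nothing about what binds there.

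The E-boxes before ELF3 (chr1:202010455-202010484, plus strand) and before the first RefSeq start of GRHL3 (chr1:24319324-24319353, plus strand) are shown as the matches found. By GENCODE positions both lie inside the gene, which starts at 202007945 for ELF3 and at 24319322 for GRHL3. The capitals mark CACCTG, which lies 114 and 15 bases before the RefSeq start, with 12 bases on each side.
ELF3: gaatatgcaaatCACCTGgggccaggagcc
GRHL3: agttaacagctgCACCTGttgaggtatacc
The windows of EHF and GRHL1 are shown as examples without CACCTG that differ in base composition and GC boxes. GRHL2, OVOL1, ESRP1 and ESRP2, also called lower, were not searched, so that matches cannot be set against the calls. The 250 bases before the first RefSeq start of EHF (chr11:34624007-34624256, plus strand) held none of the motifs and were 50.0% G or C. They lie inside the gene, which starts at 34621093 by GENCODE positions, and the bases before that position were not searched. The 250 bases before the GRHL1 start (chr2:9951443-9951692, plus strand) were 81.6% G or C and held 3 GC boxes, which the capitals mark and which read GGGCGG on the other strand.
EHF: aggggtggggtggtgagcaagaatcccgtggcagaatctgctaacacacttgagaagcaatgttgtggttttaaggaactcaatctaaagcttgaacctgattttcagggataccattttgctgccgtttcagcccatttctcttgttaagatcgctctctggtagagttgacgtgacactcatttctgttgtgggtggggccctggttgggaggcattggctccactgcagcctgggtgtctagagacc
GRHL1: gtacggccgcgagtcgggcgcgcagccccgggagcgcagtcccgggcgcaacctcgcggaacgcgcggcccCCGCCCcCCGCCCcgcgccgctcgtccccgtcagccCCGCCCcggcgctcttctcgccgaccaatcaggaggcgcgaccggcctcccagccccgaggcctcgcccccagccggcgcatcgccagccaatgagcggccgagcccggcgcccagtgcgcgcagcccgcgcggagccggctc

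Genes known to depend on grainyhead-like factors were lower in large part. Of 26 genes listed as their targets, 22 were tested, 12 were lower in HCC827/GR at an adjusted p under 0.05 (5.71% of all entries were), 0 were higher and 10 did not pass, with a median log2 difference of -1.51 against 0.0014 over all entries. At an unadjusted p under 0.05, 17 were lower and 0 higher, beside 2242 and 2168 of all 16189 entries. With the library-size covariate 0 were called by limma, 13 were lower at an unadjusted p under 0.05 (1604 of all entries) and the median was -1.11. With the replicate block 0 were called and 19 were lower at an unadjusted p under 0.05 (1869 of all entries). The 6 with the largest changes were CDH3, which encodes P-cadherin (-4.59, standard error 0.23), ST14, which encodes the protease matriptase (-3.82, 0.18), RAB25, a GTPase of apical recycling (-3.39, 0.18), the adhesion molecule EPCAM (-3.04, 0.19), the tight junction protein gene CGN (-2.24, 0.15) and the matriptase inhibitor SPINT1 (-2.13, 0.30). RAB25 had 11.9 and 7.87 FPKM in HCC827 and 0.0169, 0.0326 and 0.0258 FPKM in HCC827/GR, so that it was close to 0 in each of them, as GRHL2 was. Like GRHL2, RAB25 reached the mean required for testing only through HCC827. With each library left out, 5 of these 6 kept an adjusted p under 0.05, and SPINT1 had up to 0.110. The number called lower was 7 without HCC827/GR replicate 1 and 7 without HCC827 replicate 2. DSP, which encodes the desmosomal plaque protein desmoplakin, was not called, with a difference of 0.25 (standard error 0.32).

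Lists of related regulators held fewer genes called lower, a difference between lists that was not tested. The counts of the 5 lists that follow stand beside 5.71% of all entries called lower and 5.26% called higher. With the library-size covariate, as with the replicate block, limma called 0 genes of the 5 lists that follow. Of the repressors of the epithelial state, 6 of 12 were tested and 2 were higher, ZEB2 with a difference of 0.95 (standard error 0.12) and ZEB1 with 0.82 (0.15). With all entries of the symbol ZEB2 summed, its difference was 1.08 and it was not called (limma adjusted p of 0.123). ZEB2 had 0.219 and 0.259 FPKM in HCC827 and 1.51, 1.23 and 1.45 FPKM in HCC827/GR, and its limma adjusted p of 0.0173 was over 0.05 with any library left out. It reached the mean required for testing only through HCC827/GR. The adjusted p of ZEB1, 0.0372, was under 0.05 only without HCC827 replicate 3 and otherwise reached 0.110. SNAI1 (-0.36, standard error 0.12) and SNAI2 (1.19, 0.74; 0.39 without HCC827 replicate 2 and 1.99 without replicate 3) were not called, and TWIST1 was listed at 0 in 4 libraries with 0.0066 FPKM in HCC827/GR replicate 3.

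Of 19 other splicing regulators, 13 were tested and 0 were called by limma. At an unadjusted p under 0.05, 4 of the 13 were lower and 1 higher, beside 2242 and 2168 of all 16189 entries. Among the 13, RBM47, an epithelial splicing factor, had a difference of -0.27 (standard error 0.16), RBFOX2 of -0.13 (0.19) and QKI, which favours mesenchymal splice forms, of 0.97 (0.32, adjusted p = 0.136). Without HCC827 replicate 2 the difference was -0.077 for RBM47 and 1.46 for QKI, and without replicate 3 it was -0.47 and 0.48. The sign for RBFOX2 turned with some of the alternatives. The deposited table gives 1 value per gene, so splice forms of ESRP targets could not be compared. Of 20 genes whose splicing ESRP1 and ESRP2 are known to control, 18 were tested. In total expression 3 were lower (5.71% of all entries) and 2 higher (5.26%). The median of the 18 was 0.051, and it was -0.026 without HCC827/GR replicate 2 and -0.14 without HCC827 replicate 3. GRHL1 is on this list and was lower. The others called were FGFR1 (2.81, standard error 0.23), the tricellular junction receptor gene LSR (-1.86, 0.16), TCF7L2 (-0.66, 0.13) and the phosphatase gene PTPRF (0.63, 0.12). TCF7L2 and PTPRF were not called with any library left out, and the adjusted p of LSR was 0.0580 without HCC827 replicate 2. FGFR1 had 0.935 and 1.59 FPKM in HCC827 and 14.2, 12.04 and 18.6 FPKM in HCC827/GR, whereas FGFR2, the best known ESRP target, was between 0.00256 and 0.0277 FPKM in all libraries. CD44 had a difference of 0.48 (standard error 0.12) and an adjusted p of 0.0757.

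Among 24 relatives of the regulators in the same gene families, 17 were tested, with a median of -0.19. At an unadjusted p under 0.05, 6 of the 17 were lower and 1 higher, beside 2242 and 2168 of all 16189 entries. At an adjusted p under 0.05, 0 were higher and 3 were lower, ETV4 (-1.47, standard error 0.16), ELK3 (-1.04, 0.13) and the grainyhead relative TFCP2 (-0.83, 0.17). Their adjusted p, at most 0.0449, rose to 0.0769, 0.0917 and 0.182 at the highest with a library left out. Of 20 other epithelial transcription factors, 9 were tested. Of these, 2 were lower, among them NKX2-1 (-1.64, standard error 0.18), and 1 was higher. The NKX2-1 entry also holds transcripts of SFTA3 and AL132857.1. The adjusted p of NKX2-1, 0.0115, was over 0.05 when either HCC827 library was left out, and reached 0.0798.

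**Figure D4:**
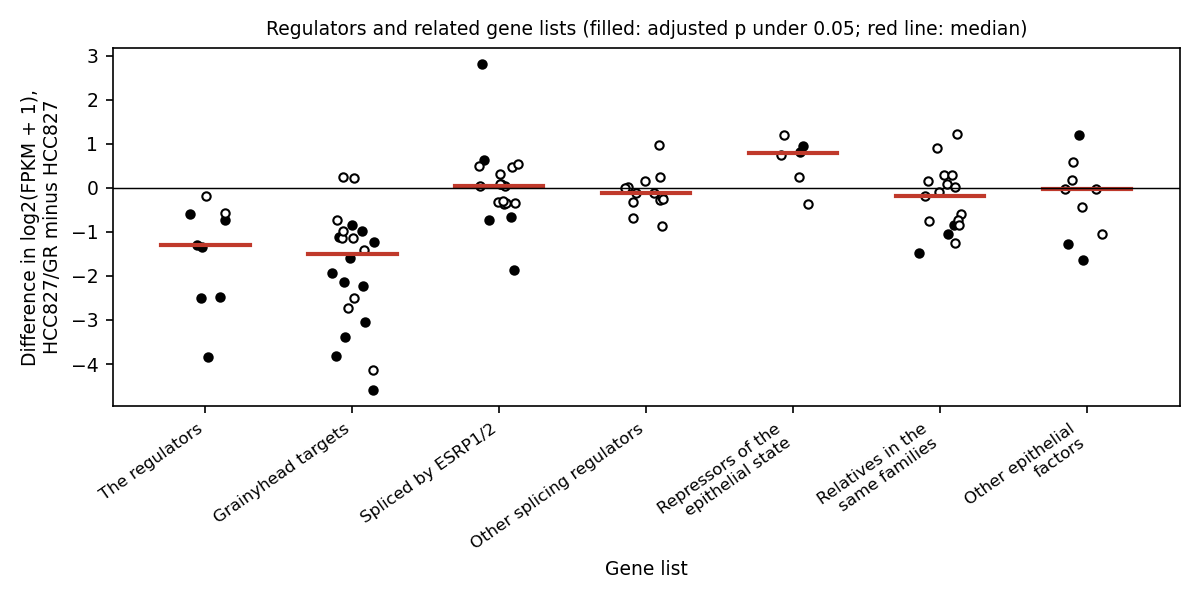
Difference in log2(FPKM + 1), HCC827/GR minus HCC827, of each tested gene (points, filled where the adjusted p was under 0.05) in the 9 tested regulators and 6 related lists, with a red line at each median. The regulators and the grainyhead targets have medians of -1.30 and -1.51, and the other lists lie nearer 0 or above.

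The entries whose pattern over the 5 libraries was closest to the median pattern of the 9 tested regulators were DPY19L1P1, AC022400.3, MT1A, MISP and RAB31, by the root mean square distance between centred log2(FPKM + 1) values, which was 0.0542, 0.0637, 0.0685, 0.0761 and 0.0928. AC022400.3 and MT1A were listed at 0 in all HCC827/GR libraries. MISP, which encodes an actin-bundling protein of the mitotic spindle, had 13.2 and 20.1 FPKM in HCC827 and 5.85, 6.99 and 5.82 FPKM in HCC827/GR.

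Genes beside each regulator on its chromosome were examined after the values had been seen, as 5 tested protein-coding genes on each side in GENCODE release 29. Genes that were not tested and entries that join several genes were passed over, so these are not always the nearest genes. For ESRP1 (chromosome 8, 94641074 to 94707466) the 10 neighbours had a median log2 difference of -0.12 and a range from -0.97 to 0.92, for EHF (chromosome 11, 34621093 to 34661057) a median of 0.30 and for KLF5 (chromosome 13, 73054976 to 73077542) a median of 0.15. The neighbours of KLF5 were spread from 60396457 to 77327050, a far wider stretch than for any other regulator. For OVOL1 (chromosome 11, 65787022 to 65797219) it was -0.070 and for GRHL1 (chromosome 2, 9951693 to 10002277) it was 0.23, with 0 of 10 called lower for EHF, KLF5, OVOL1 and GRHL1 and 2 of 10 for ESRP1.

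GRHL2 (chromosome 8, 101492432 to 101669726) stood among neighbours of which 4 of 10 were lower, with a median of -0.68. All 4 lay beyond it, among them RRM2B (-1.10), AZIN1 (-1.16) and ATP6V1C1 (-1.28). With each library left out, AZIN1 and ATP6V1C1 kept an adjusted p under 0.05, whereas that of RRM2B reached 0.113. The 5 genes before GRHL2, RNF19A, ANKRD46, PABPC1, YWHAZ and ZNF706, had differences of 0.77, 0.25, 0.029, -0.11 and -0.60, and 0 of them were called by limma, with the lowest adjusted p, 0.0519, for RNF19A. GRHL2 itself fell by 2.47 on this scale, more than any of the 10 neighbours. The part of these neighbours' fall in the result for GRHL2 was not tested.

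**Figure D5:**
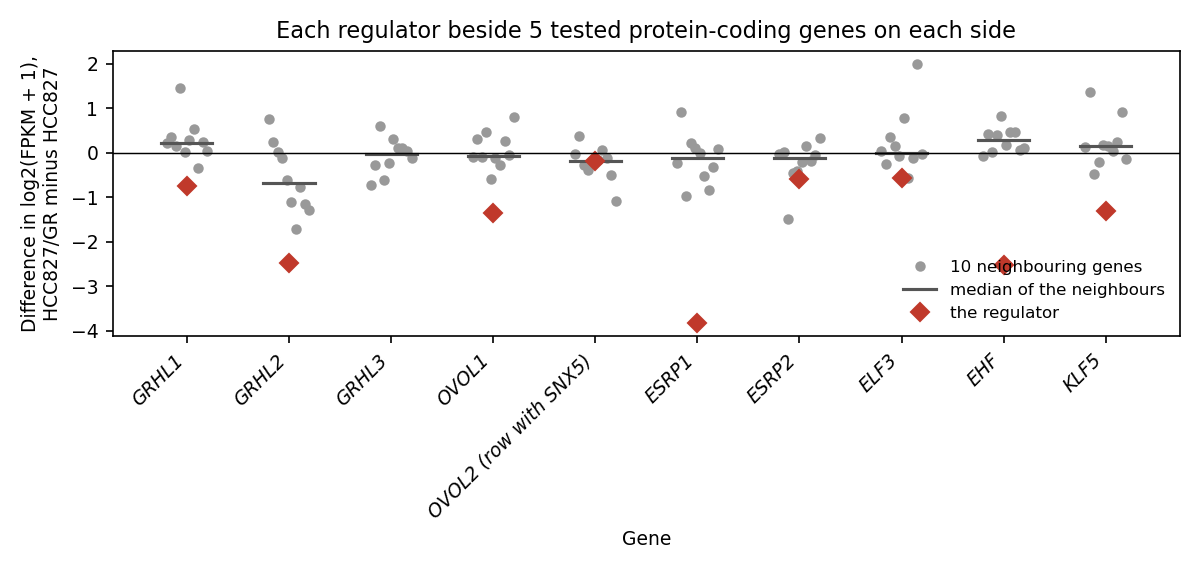
Difference in log2(FPKM + 1), HCC827/GR minus HCC827, of each regulator (red diamonds; GRHL3 was not tested) and of the 5 tested protein-coding genes on each side of it (grey points, with a line at their median). The neighbours have medians between -0.19 and 0.30 except those of GRHL2, at -0.68. Entries that join several genes were passed over as neighbours.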

How the data were processed

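Total RNA of HCC827/GR (3 libraries) and HCC827 (2 libraries, titled HCC827/GS by the submitters) had been sequenced. The authors trimmed reads with Cutadapt, mapped them with Bowtie2 and TopHat2, assembled them with StringTie and deposited 1 FPKM value per gene or assembled locus. The submitters' processing notes list hg18 as the genome build, and versions are not given in the sources used here. The labels describe a small-RNA library and the paper an rRNA-depleted mRNA library. The 1 FPKM column that matched no sample was not used.

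FPKM carries no read counts, so depth is unknown, no counting error could be given, and values of 0, of which each library had 8896 to 9803, were read only as listed at 0. A 0 can be a failed estimate.

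HCC827/GR was compared with HCC827 on log2(FPKM + 1) with limma 3.58.1 in R 4.3.3 (lmFit, eBayes with a trend, two-sided) over 16189 entries whose mean reached 0.5 FPKM, with Benjamini-Hochberg adjustment over all of them and a threshold of 0.05. The fit was tested on simulated data. Single values were compared by an exact permutation test over libraries. Positions came from GENCODE release 29 (GRCh38) through Ensembl transcript identifiers, of which 135164 of 135299 matched, since the table holds none. Python 3.11.15 with numpy 2.4.6, pandas 2.3.3 and matplotlib 3.10.9 was used for the remaining steps.

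All 10 regulators are named. From each list of related genes, up to 6 called genes with the largest change were named, apart from some that are not reported here, plus ZEB1, ZEB2, SNAI1, SNAI2, TWIST1, RBM47, RBFOX2, QKI, FGFR2 and CD44. DSP, RRM2B, AZIN1, ATP6V1C1 and the genes before GRHL2 were chosen after their values were seen. The regulators and lists were chosen with earlier results of these data known.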

Additional observations from a re-analysis of the deposited data

How the results depend on the processing

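Median-ratio scaling and limma without the trend changed no call among the regulators and no count of calls by over 1.5 times. All alternatives kept the direction of the regulators, and ESRP1 lost its call only under the replicate block.

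With the replicate number as a block, which leaves 1 residual degree of freedom, the differences were -0.72 for GRHL1, -2.47 for GRHL2, -1.35 for OVOL1, -3.82 for ESRP1, -0.59 for ESRP2, -2.58 for EHF and -1.21 for KLF5, and 0 entries were called by limma in either direction, regulators and lists included, with 1869 lower and 1676 higher at an unadjusted p under 0.05. The median of the other splicing regulators was -0.21. Deviations from the mean of a line correlated by 0.033 between the replicate 2 libraries of the lines and by 0.015 between the replicate 3 libraries. These values cannot decide whether libraries were paired, because the 2 HCC827 libraries deviate from their mean by equal and opposite amounts. With a library-size covariate, 23 entries were called lower and 21 higher, 1 regulator (ESRP1) and 0 genes of the lists of grainyhead targets, ESRP targets, repressors, relatives and other epithelial factors. The differences were then -0.78 for GRHL1, -2.53 for GRHL2, -1.45 for OVOL1, -0.57 for ESRP2, -2.32 for EHF and -1.60 for KLF5, the medians -1.11 for grainyhead targets, -0.39 for relatives and -0.58 for other epithelial factors, and RBFOX2 turned to 0.085.

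With no filter on low values, GRHL1 (-0.74), OVOL1 (-1.35) and KLF5 (-1.30) kept their differences at adjusted p of 0.0520, 0.0929 and 0.0820, and GRHL3 was called at -0.26 (adjusted p = 0.0359). Groups were then apart in 6724 entries lower in HCC827/GR. The median was -1.02 for the regulators, 0.24 for repressors and -0.089 for relatives. ESRP targets had 1 lower and 1 higher, other splicing regulators 1 lower, repressors 1 higher and other epithelial factors 4 lower. With a mean of at least 1 FPKM, OVOL1 was not tested, 1 repressor was higher and the medians were -1.02 for the regulators, -1.76 for grainyhead targets, -0.39 for relatives and -0.24 for other epithelial factors. With a pseudocount of 0.1, 1024 entries were lower and 860 higher by at least 1 at an unadjusted limma p under 0.05. These stand against 643 and 480 with the added 1. The medians with a pseudocount of 0.1 were -2.56 for grainyhead targets and 1.06 for repressors. With quantile normalization OVOL1 was -1.31 (adjusted p = 0.0553) and 1 ESRP target was higher. With entries of a symbol summed, 1 repressor, ZEB1, was higher and ZEB2 was not called (limma adjusted p of 0.123). The median of relatives was then -0.30 and RBFOX2 was 0.028. The log2 ratio of the mean FPKM was -1.50 for GRHL1, -8.39 for GRHL2, -7.71 for OVOL1, -7.78 for ESRP1, -0.73 for ESRP2 and -4.84 for EHF, on values close to 0 for GRHL2, OVOL1, ESRP1 and EHF.

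With each library left out, the difference ran from -0.76 to -0.72 for GRHL1, from -1.74 to -0.96 for OVOL1, from -0.63 to -0.55 for ESRP2 and from -1.59 to -1.004 for KLF5. Entries called numbered 287 to 477 lower and 202 to 485 higher, regulators 3 to 4, grainyhead targets 7 to 11 lower, ESRP targets 0 to 1 lower and 1 higher, repressors 0 to 1 higher, relatives 0 to 2 lower and 0 to 1 higher, and other epithelial factors 1 lower. Medians ran from -1.59 to -0.96 for the regulators, from -1.73 to -1.29 for grainyhead targets, from -0.14 to 0.11 for ESRP targets, from -0.21 to -0.077 for other splicing regulators, from 0.52 to 0.83 for repressors, from -0.28 to -0.17 for relatives and from -0.39 to 0.0099 for other epithelial factors, and RBFOX2 from -0.27 to 0.013. A lone HCC827 library was assumed to vary like the others. The cause of each lost call was not tested, and unknown depth limits every value near 0.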
